A study of Fundulus heteroclitus with 6 samples.

Results

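Embryos of the Atlantic killifish (Fundulus heteroclitus) from a PCB-contaminated site, New Bedford Harbor (NBH), were compared with embryos from the reference site Scorton Creek (SC), both after exposure to PCB-126. The comparison covered every isogroup whose reads in the 2 PCB-126 libraries summed to 10 or more, which were 4234 of the 22732 isogroups in the table. An isogroup is a set of assembled contigs taken to derive from 1 gene. The groups were NBH embryos with 50 nM PCB-126 and SC embryos with 50 nM PCB-126, and the corresponding DMSO groups were NBH and SC embryos with 0.1% DMSO, the solvent. All were whole embryos at 10 days post-fertilization (dpf). The study's methods give an exposure of 1 h beginning at 4 h post-fertilization, whereas the sample labels give 6 h. The eggs of 8 females and the testes of 5 males were used for each site, and 3 pools of 20 embryos each gave the RNA of a library. There was 1 library per group and no replicate library, so a test of a pair compares read numbers between individual libraries rather than conditions, and a difference between sites cannot be told apart from a difference between these sets of parents.

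PCB-126 is a dioxin-like polychlorinated biphenyl and a ligand of the aryl hydrocarbon receptor (AHR). The bound receptor pairs with ARNT in the nucleus and switches on genes of foreign-compound metabolism, of which the cytochrome P450 genes of the CYP1 family are the best known. In fish embryos strong activation of the AHR disturbs the development of the heart, and killifish that have lived for generations at heavily contaminated sites, NBH among them, are known for a weak response to such compounds. The isogroups carried no gene names here, so the AHR genes could not be picked out, and the isogroups are described by their numbers and their reads.

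The 4 libraries were barcoded and shared 1 region of a sequencing run. The uniquely matching reads summed to 123644 for NBH and 132893 for SC embryos with PCB-126. With DMSO they summed to 95410 for NBH and 124000 for SC embryos. The paper's range of total reads per library begins above most of these sums, so some reads were not counted here. The 4234 isogroups held 80.7% of the NBH reads and 80.9% of the SC reads with PCB-126. The cDNA was primed with oligo-dT and so tied to the 3′ ends of transcripts, and a level is given as reads per 100000 reads of the library, without correction for length. A count of 0 allows up to 3 reads, which is 2.43 reads per 100000 in NBH and 2.26 in SC embryos with PCB-126, and 3.14 in NBH and 2.42 in SC embryos with DMSO. Reads without molecular identifiers are not independent molecules, so these floors and all intervals cover counting error only. Only uniquely matching reads were counted, so the reads of near-identical gene copies may be split or lost, and the count of any single isogroup is uncertain in that respect.

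With PCB-126, 568 isogroups were higher in NBH than in SC embryos and 566 were lower. An isogroup was called when Fisher's exact test (two-sided) gave a Benjamini-Hochberg adjusted p under 0.05 and its share of the library differed by at least 2-fold. These were 13.4% higher and 13.4% lower of the 4234 isogroups tested, or 26.8% in either direction. The whole distribution was centred: the log2 ratio of NBH over SC, with 0.5 reads added to each count, had a median of 0.02 and quartiles of −0.94 and 0.97, and it ranged from −8.13 to 8.64. There were 421 isogroups at the minimum of exactly 10 reads, with a median log2 ratio of 0.10, and 490 just outside it with 9 reads, with a median of −0.19. At such counts the ratio moves in steps. An isogroup with 5 reads in each library has 0.10, and 9 reads cannot be divided evenly. The change of sign is therefore not read as a shift. In all, 1054 isogroups were at least 2-fold higher and 1053 at least 2-fold lower in NBH, called or not. In RNA of whole embryos, fewer cells of a type and less RNA per cell cannot be told apart. The paper describes delayed development and pericardial edema in SC embryos with PCB-126 by 10 dpf, and normal development in the other groups. How far this entered the ratios was not tested.

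**Figure D1:**
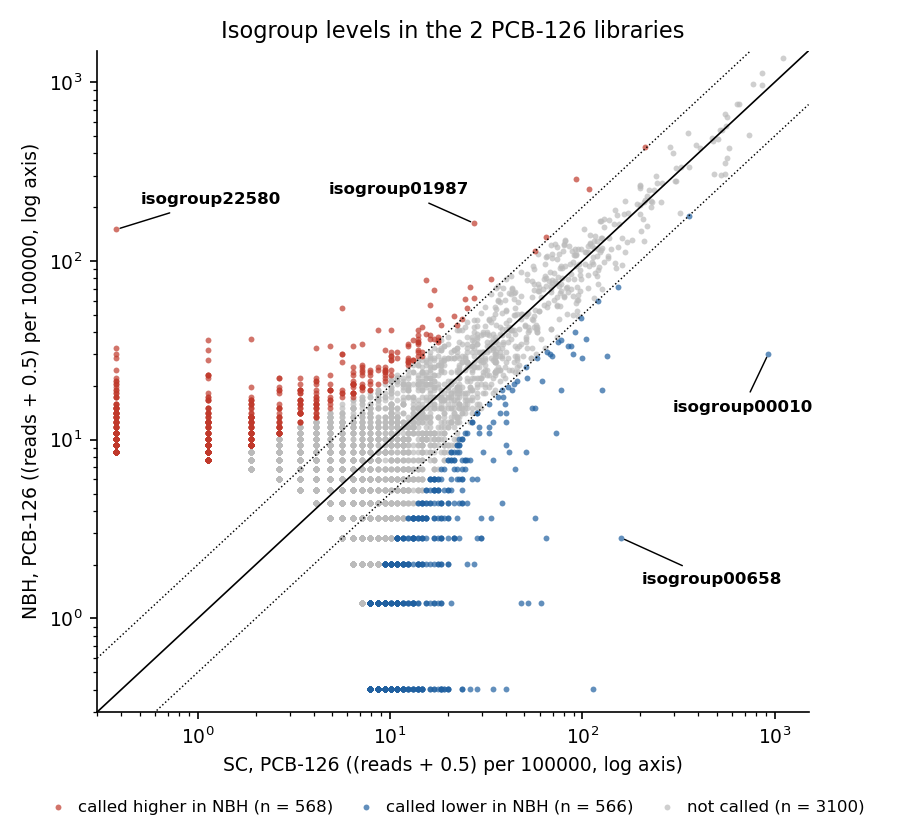
Level of each of the 4234 isogroups in NBH embryos (vertical axis) and SC embryos (horizontal axis) with PCB-126, as (reads + 0.5) per 100000 reads of the library on log axes, with a solid line at equal levels and dotted lines at 2-fold. The 568 isogroups called higher in NBH and the 566 called lower lie on both sides of the line, mostly at low levels. Labelled are isogroup00010, isogroup00658, isogroup01987 and isogroup22580, which had the smallest p of Fisher's exact test in their direction.

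The isogroups called higher made up 10.3% of the reads of NBH and 2.24% of the reads of SC embryos with PCB-126. Of these 568, 418 had reads in both libraries, and their folds ranged from 2 to 47.3 with a median of 5.91. There were 114 at 2 to 4-fold, 186 at 4 to 10-fold and 118 at 10-fold or more. The other 150 had no reads in SC embryos with PCB-126 and 10 to 185 reads in NBH embryos (median 12). Because the minimum of 10 reads was set on the pair, every isogroup with no reads in 1 of the libraries had at least 10 in the other, and all of them were called.

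The isogroups called lower made up 2.22% of the reads of NBH and 11.4% of the reads of SC embryos with PCB-126. Of these 566, 384 had reads in both libraries, and they were 2.01 to 74.4-fold lower in NBH with a median of 5.77-fold. There were 117 at 2 to 4-fold, 170 at 4 to 10-fold and 97 at 10-fold or more. The other 182 had no reads in NBH embryos with PCB-126 and 10 to 150 reads in SC embryos (median 12). The median fold thus lay close to that of the isogroups called higher.

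Among the isogroups called higher in NBH, isogroup22580 and isogroup01987 had the smallest p of Fisher's exact test. Isogroup22580 had 185 reads in NBH embryos with PCB-126, against 0 reads in SC embryos with PCB-126, and 0 reads in NBH and 0 in SC embryos with DMSO. Its level of 150 reads per 100000 in NBH was 66.3-fold above the floor of 3 reads in SC. The exact 95% interval of its ratio of NBH over SC began at 53.4 and had no upper limit. All its reads thus came from 1 library. Isogroup01987 had 200 reads in NBH and 36 in SC embryos with PCB-126, and 99 reads in NBH and 44 in SC embryos with DMSO. It was 5.97-fold higher in NBH with PCB-126 (95% interval 4.17 to 8.77) and 2.92-fold higher with DMSO (2.03 to 4.27). Both NBH libraries lay above both SC libraries, and the difference between these ratios did not pass the exact conditional test (adjusted p = 0.0582).

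Among the isogroups called lower, isogroup00010 and isogroup00658 had the smallest p. Isogroup00010 had 37 reads in NBH and 1233 in SC embryos with PCB-126, and 55 reads in NBH and 781 in SC embryos with DMSO. It was 31.0-fold lower in NBH with PCB-126 (95% interval 22.4 to 44.2) and 10.9-fold lower with DMSO (8.31 to 14.6). Its level was 29.9 reads per 100000 in NBH and 928 in SC with PCB-126, against 57.6 in NBH and 630 in SC with DMSO, so that both NBH libraries were far below both SC libraries. Isogroup00658 had 3 reads in NBH and 210 in SC embryos with PCB-126, and 0 reads in NBH and 0 in SC embryos with DMSO. It was 65.1-fold lower in NBH with PCB-126 (22.0 to 318). Like isogroup22580, it was abundant in 1 library only.

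**Figure D2:**
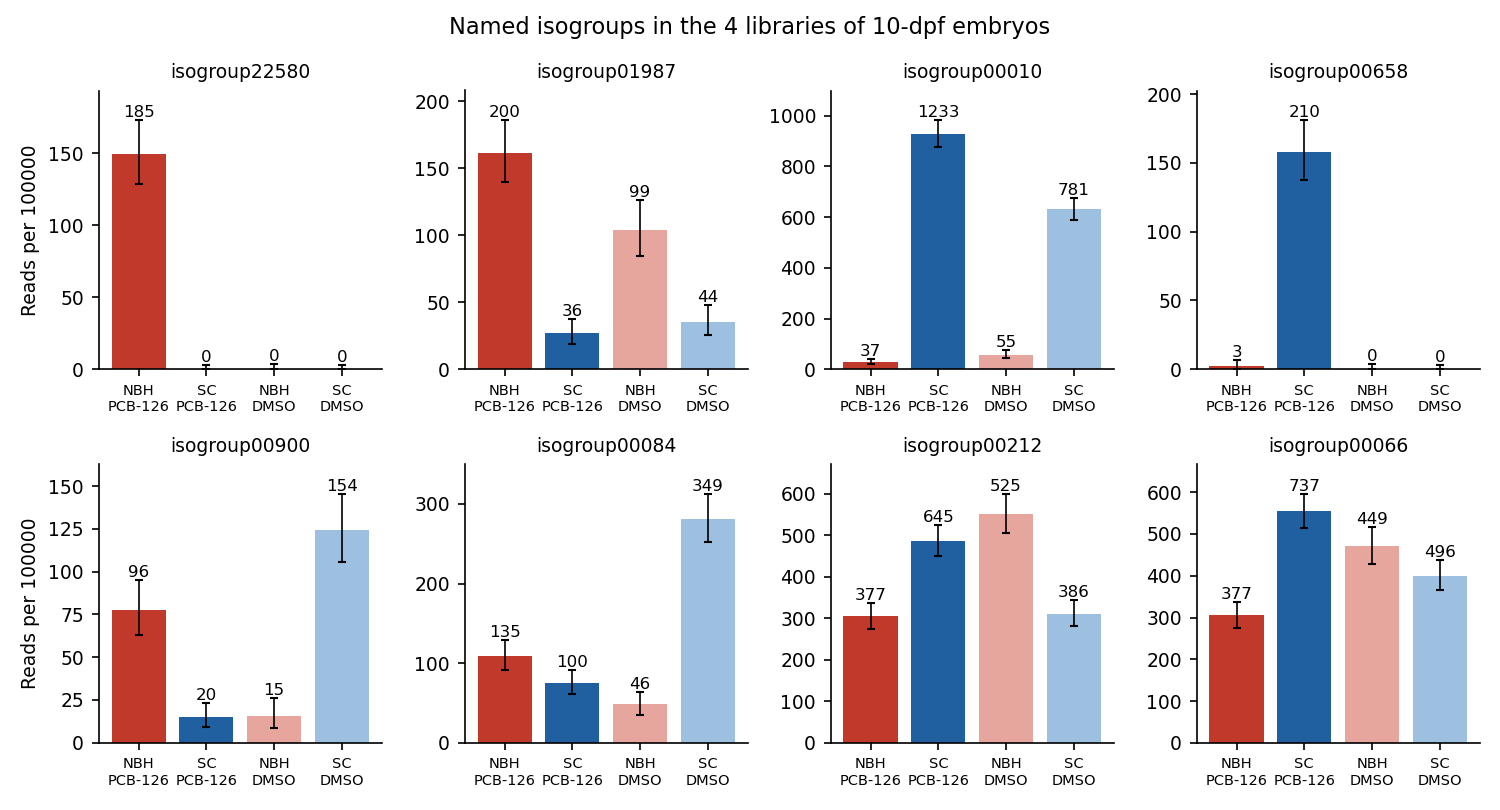
Reads per 100000 (vertical axes, scaled separately and starting at 0) of 8 isogroups in NBH and SC embryos with PCB-126 and NBH and SC embryos with DMSO, 1 library each, with exact 95% Poisson intervals of the counts as error bars and the number of reads above each bar. In the upper row isogroup22580 and isogroup00658 are high in 1 library, whereas isogroup01987 and isogroup00010 differ the same way with both treatments, and in the lower row the order of NBH and SC with PCB-126 is the opposite of that with DMSO.

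Most of the called isogroups had few reads. Of the 2287 isogroups with 10 to 19 reads in the pair, 343 were called higher and 312 lower (28.6%), and the smallest fold called was 4.03. Of the 1239 with 20 to 49 reads, 172 were called higher and 192 lower (29.4%). The share was 21.2% of the 363 isogroups with 50 to 99 reads, where 39 were higher and 38 lower, and 14.8% of the 176 with 100 to 199 reads, where 8 were higher and 18 lower. Of the 169 isogroups with 200 or more reads, 6 were called higher and 6 lower (7.10%). Among these 12, the 6 called higher were 2.02 to 5.97-fold higher in NBH and the 6 called lower were 2.01 to 65.1-fold lower, and 1 of each was also called so with DMSO.

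**Figure D3:**
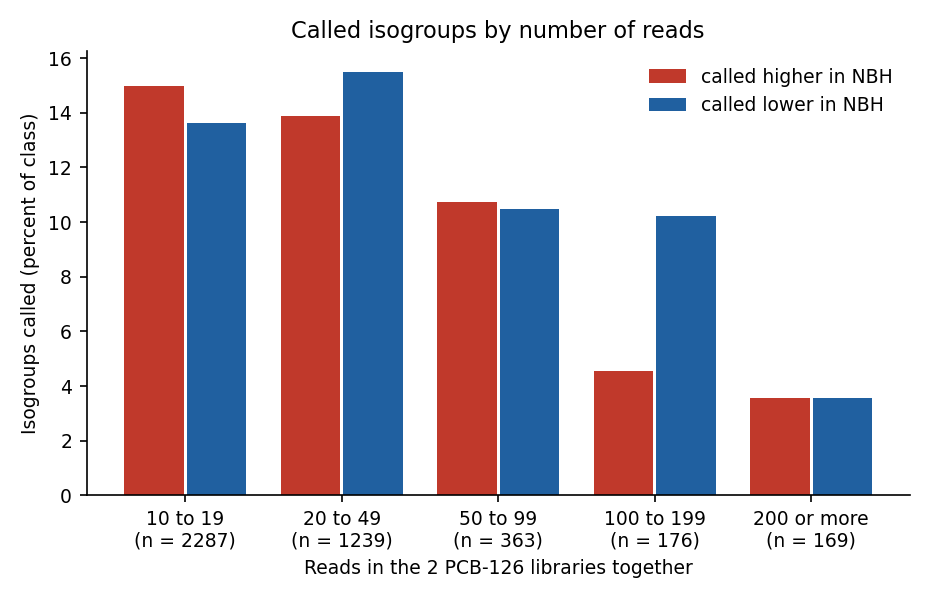
Percent of the isogroups called higher or lower in NBH than in SC embryos with PCB-126 (vertical axis) in 5 classes of reads in these 2 libraries together (horizontal axis, with the number of isogroups). The share called in either direction was 28.6% of the isogroups with 10 to 19 reads and 7.10% of those with 200 or more.

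The log2 ratios narrowed with depth, with quartiles of −1.25 and 1.33 at 10 to 19 reads and −0.27 and 0.31 at 200 or more. They did not narrow as far as counting error would allow. The squared difference between NBH and SC divided by its counting variance had a median of 2.65 at 10 to 19 reads and 4.32 at 200 or more, where counting error alone gives 0.455. Over all isogroups that reached 10 reads in a pair, the same measure was 2.65 for NBH against SC with PCB-126 and 2.62 with DMSO, and it was 2.34 for PCB-126 against DMSO in NBH and 2.56 in SC embryos. At 200 or more reads these comparisons lay further apart, at 4.32 for NBH against SC with PCB-126, 3.56 with DMSO, 2.38 for PCB-126 against DMSO in NBH and 4.47 in SC embryos. The share of isogroups called in either direction was 26.8% for NBH against SC with PCB-126, 25.1% for NBH against SC with DMSO, 23.1% for PCB-126 against DMSO in NBH and 22.9% for PCB-126 against DMSO in SC.

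The 20 isogroups of most reads took 12.3% of the NBH reads and 13.0% of the SC reads with PCB-126. Isogroup00010 was the only member of this set that was called. The largest count of any isogroup in SC embryos with PCB-126 was 1476 reads. The paper, by sequence search of its 10-dpf reads, counted more than that for CYP1A in this group. The set may therefore leave out an abundant transcript that differed, and the reason was not tested. The other 19, with 1114 to 3174 reads in the pair, had ratios of NBH over SC of 0.550 to 1.30, and 13 of them had an adjusted p under 0.05 by Fisher's exact test without reaching 2-fold. With DMSO the ratios of the same 19 were 0.744 to 1.71.

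The DMSO libraries are a pair of NBH and SC libraries that had no part in choosing or calling these isogroups. The study's methods give a single set of parents per site for both treatments. The DMSO pair is therefore no independent repeat of the comparison of sites. With DMSO, 465 isogroups (13.0%) were called higher and 431 (12.1%) lower in NBH of the 3570 that had at least 10 reads in that pair. Of the 4234 isogroups compared with PCB-126, 2516 were among those 3570, 1489 had 1 to 9 reads with DMSO and 229 had none. The 2516 included 242 called higher (9.62%) and 235 called lower (9.34%) in NBH with DMSO.

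Of the 568 isogroups called higher in NBH with PCB-126, 237 could be tested with DMSO. Among them 46 were also called higher with DMSO (19.4%, beside 9.62% of all 2516), 22 were called lower (9.28%, beside 9.34%) and 169 were not called. Their median log2 ratio was 2.05 with PCB-126 and 0.21 with DMSO, and 56.1% of them were higher in NBH than in SC with DMSO, against 48.4% of all 2516. The medians with PCB-126 follow from the call rule and are given as a description.

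Of the 566 called lower, 239 could be tested with DMSO. Among them 38 were also called lower with DMSO (15.9%, beside 9.34% of all 2516), 19 were called higher (7.95%, beside 9.62%) and 182 were not called. Their median log2 ratio was −2.05 with PCB-126 and −0.22 with DMSO, and 56.9% of them were lower in NBH than in SC with DMSO, against 51.6% of all 2516. In all, 84 isogroups were called the same way with both treatments and 41 in opposite ways.

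The same counts were taken for isogroups that reached 50 reads in the PCB-126 pair, where counting error is smaller. Of 52 called higher with PCB-126 and tested with DMSO, 11 were called higher (21.2%) and 5 lower (9.62%) with DMSO, whereas 7.12% of all 702 such isogroups were called higher. Of 57 called lower, 11 were called lower (19.3%) and 3 higher (5.26%), whereas 8.55% of the 702 were called lower. Without the minimum of 50 reads, 46 isogroups were higher in NBH with both treatments, with a median of 27 reads in the PCB-126 pair. These 46 had median log2 ratios of 2.31 with PCB-126 and 2.17 with DMSO, and 16 of them had at most 3 reads in each SC library. The 38 that were lower with both, also without that minimum, had a median of 29 reads in the PCB-126 pair. Their median log2 ratios were −2.33 with PCB-126 and −2.68 with DMSO, and 18 had at most 3 reads in each NBH library. The medians of these 46 and 38 follow from the calls with both treatments that chose them, and are given as a description.

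Across isogroups, the log2 ratio with PCB-126 and that with DMSO had a Pearson r of 0.11 and a Spearman rho of 0.05 over the 2516 isogroups that had 10 or more reads in each pair. Over the 708 isogroups that reached 50 reads in the PCB-126 pair r was 0.25 and rho 0.14, and over the 345 that reached 100 reads in that pair both were 0.12. Without isogroup00010 the last r was 0.04 and rho 0.11. These values describe isogroups, which are not independent replicates, and the pairs share no library but share the parents of each site. The levels themselves followed each other more closely, with a Pearson r of log2 levels of 0.75 between NBH and SC with PCB-126 over 625 isogroups that reached 100 reads in the 4 libraries, against 0.83 between NBH and SC with DMSO. By Spearman rho the same comparisons were closer to each other, at 0.74 with PCB-126 and 0.76 with DMSO. Between PCB-126 and DMSO over these 625 isogroups, r was 0.83 and rho 0.77 in NBH. In SC embryos r was 0.81 and rho 0.79.

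**Figure D4:**
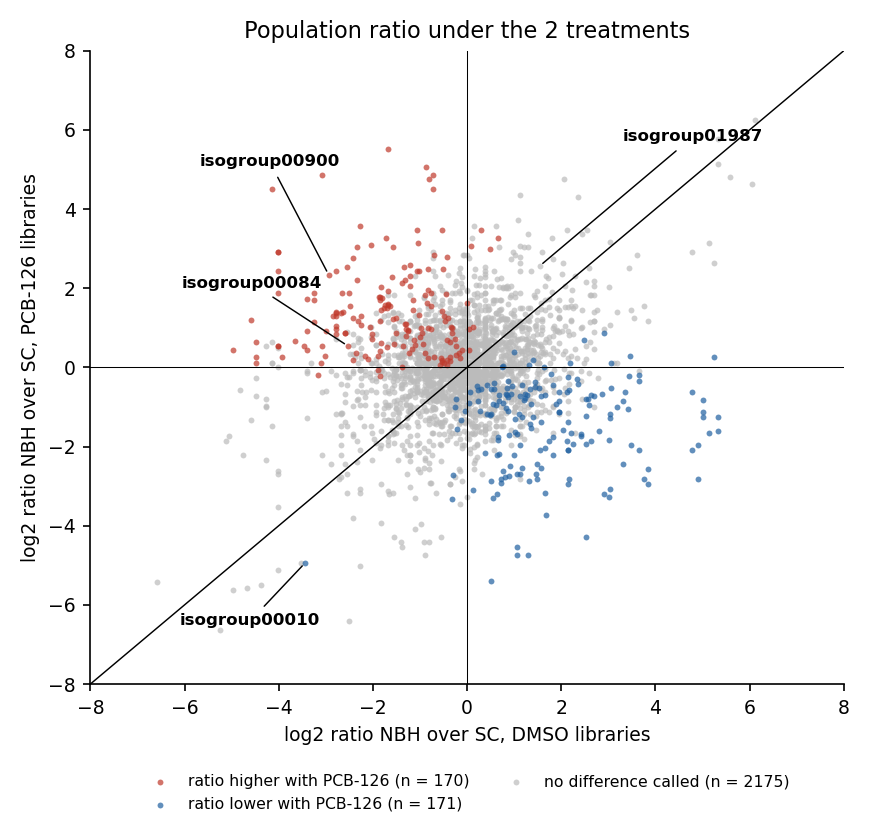
Log2 ratio of NBH over SC with PCB-126 (vertical axis) and with DMSO (horizontal axis) for the 2516 isogroups that had 10 or more reads in each pair, coloured by the exact conditional test of equal ratios, with a diagonal line at equal ratios. The 170 isogroups with a higher ratio with PCB-126 lie mostly to the upper left, the 171 with a lower ratio mostly to the lower right, and isogroup00010 is low on both axes.

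Each called isogroup was also placed by which of the 4 libraries stood apart at a 2-fold threshold, as a description, since the PCB-126 libraries had chosen it. Of the 568 called higher, 112 (19.7%) had both NBH libraries above both SC libraries, with median levels of 11.3 reads per 100000 in NBH and 0.752 in SC with PCB-126 and 5.76 in NBH and 0.806 in SC with DMSO. The NBH library with PCB-126 was high by itself in 288 (50.7%), where the median level was 11.3 in that library and the medians of the others were at most 1.61. Medians of 0.752, 0.806 and 1.61 lie below the floors of 3 reads. At such low counts a 2-fold gap rests on a few reads, and the pattern is uncertain. The share of each pattern over all 4234 isogroups was not taken. The SC library with PCB-126 was low by itself in 71 (12.5%), and 97 (17.1%) had another order. Reads came from the NBH library with PCB-126 only, and from none of the other 3, in 57 isogroups.

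The isogroups called lower divided in much the same way, with the same limit at low counts. Both SC libraries were above both NBH libraries in 119 (21.0%), with median levels of 0.809 in NBH and 10.5 in SC with PCB-126 and 1.05 in NBH and 6.45 in SC with DMSO. The SC library with PCB-126 was high by itself in 278 (49.1%), the NBH library with PCB-126 was low by itself in 69 (12.2%), and 100 (17.7%) had another order. In 64 isogroups only the SC library with PCB-126 had reads. Together the isogroups called lower took 3.91% of the reads of NBH and 5.07% of the reads of SC embryos with DMSO, or 3.85% and 4.44% for the same libraries without isogroup00010, and those called higher took 4.83% of NBH and 4.27% of SC reads with DMSO.

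**Figure D5:**
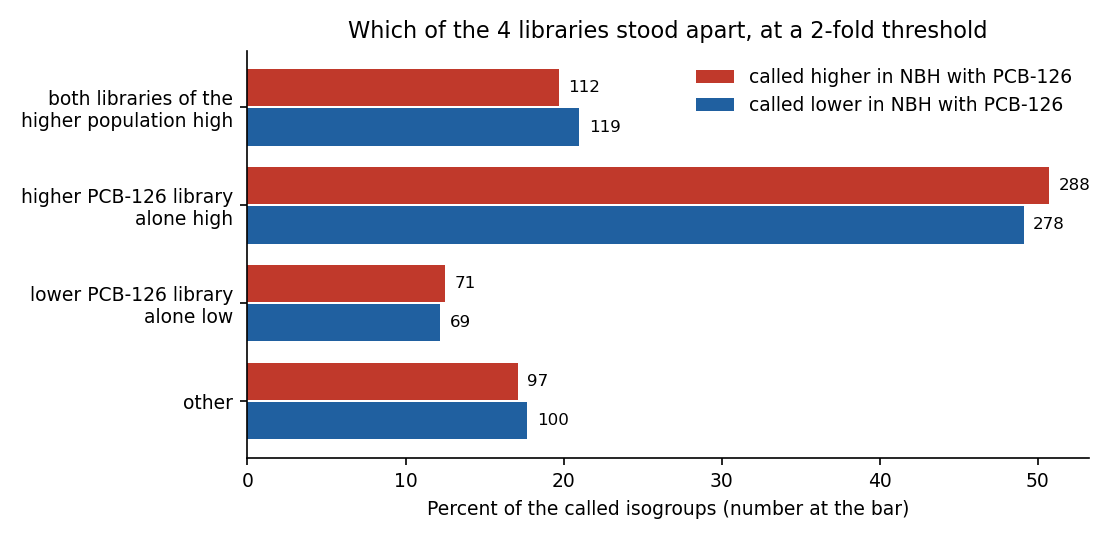
Percent of the isogroups called higher or lower in NBH than in SC embryos with PCB-126 (horizontal axis, starting at 0, with the number of isogroups at each bar) by which of the 4 libraries stood apart at 2-fold (vertical axis). A single high PCB-126 library was the pattern of 288 of the 568 called higher and 278 of the 566 called lower. The minimum of reads in the PCB-126 pair and the call both favour this pattern.

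Whether the NBH to SC ratio differed between PCB-126 and DMSO was tested per isogroup by an exact test conditional on the margins of the 4 counts, adjusted over the 4005 isogroups that had at least 1 read with DMSO. The ratio was higher with PCB-126 in 210 isogroups (5.24%) and lower in 216 (5.39%). Of the 210, 107 were called higher in NBH with PCB-126, and 84 were called lower in NBH with DMSO. Their median log2 ratios were 1.48 with PCB-126 and −1.76 with DMSO. Of the 216, 107 were called lower in NBH with PCB-126, and 84 were called higher in NBH with DMSO. Their medians were −1.57 with PCB-126 and 1.82 with DMSO. The isogroups called in opposite directions with the 2 treatments numbered 22 among the 210 and 19 among the 216. All these calls, the medians and the opposite calls follow in part from the test that chose the isogroups, and are given as a description. Over all 4234 isogroups, 13.4% were called higher and 13.4% lower in NBH with PCB-126. Of the 2516 tested with DMSO, 9.62% were called higher and 9.34% lower.

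Isogroup00900 and isogroup00084 had the smallest p among the isogroups whose ratio was higher with PCB-126. Isogroup00900 had 96 reads in NBH and 20 in SC embryos with PCB-126, and 15 reads in NBH and 154 in SC embryos with DMSO. It was 5.16-fold higher in NBH with PCB-126 (95% interval 3.16 to 8.82) and 7.90-fold lower in NBH with DMSO (4.64 to 14.5), and the ratios differed by the exact conditional test (adjusted p = 3.35e-31). The order of the populations was thus opposite with the 2 treatments. Isogroup00084 had 135 reads in NBH and 100 in SC embryos with PCB-126, and 46 reads in NBH and 349 in SC embryos with DMSO. Its ratio of NBH over SC was 1.45 with PCB-126 (1.11 to 1.90), which was not called, and it was 5.84-fold lower in NBH with DMSO (4.28 to 8.12, exact conditional test, adjusted p = 8.69e-26). The SC library with DMSO, at 281 reads per 100000, stood above the other 3, which were at 48.2 to 109.

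Isogroup00212 and isogroup00066 had the smallest p among those whose ratio was lower with PCB-126. Isogroup00212 had 377 reads in NBH and 645 in SC embryos with PCB-126, and 525 reads in NBH and 386 in SC embryos with DMSO. It was 1.59-fold lower in NBH with PCB-126 (1.40 to 1.81) and 1.77-fold higher with DMSO (1.55 to 2.02, exact conditional test, adjusted p = 6.95e-26). Isogroup00066 had 377 reads in NBH and 737 in SC embryos with PCB-126, and 449 reads in NBH and 496 in SC embryos with DMSO. Its ratio of NBH over SC was 0.550 with PCB-126 (0.484 to 0.623) and 1.18 with DMSO (1.03 to 1.34, exact conditional test, adjusted p = 4.64e-14). Both were abundant isogroups in all 4 libraries, and neither reached 2-fold in either pair.

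When population was tested over all 4 libraries with treatment as a term, by the quasi-likelihood test of edgeR with 1 residual degree of freedom, 10 of the 4234 isogroups were higher and 12 lower in NBH, with adjusted p of 8.14e-20 to 0.0283. The fit holds the PCB-126 libraries on which the isogroups were called above, so it gives no independent check of those calls. By Fisher's exact test 16 of the 22 were called the same way with DMSO, and the others had fewer than 10 reads there and were not tested. The fit that chose the 22 also holds the DMSO libraries, so this count is a description and no check either. The 22 included isogroup00010 (adjusted p = 8.14e-20), isogroup22580 (4.21e-08), isogroup00658 (1.42e-06) and isogroup01987 (6.05e-04). For isogroup22580 and isogroup00658 the DMSO libraries held no reads. Where both libraries of a treatment or of a population held no reads, this fit matches the remaining counts exactly. The 1 residual degree of freedom then holds no measure of scatter between libraries from that isogroup. Several of the 22, such as isogroup22580, isogroup00658 and isogroup08644, were of this kind. DESeq2 on the same 4 libraries called 0 isogroups higher and 1 lower, isogroup00010, with a log2 fold change of −4.18 and an adjusted p of 2.04e-26, where 56 isogroups had an unadjusted p under 0.05.

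These calls depend on what scatter is assumed between libraries. The coefficient of variation that edgeR estimated from the 4 libraries was 56.7%, and its exact test with that value called 1 isogroup higher and 0 lower with PCB-126, where 419 isogroups had an unadjusted p under 0.05. The estimate comes from a fit of population and treatment without their interaction. A population difference that changes with treatment therefore counts as scatter, here and in the fits over all 4 libraries.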

How the data were processed

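The counts deposited by the authors are raw numbers of uniquely matching 454 reads, in 1 table with a column per library. The sources used here do not name the counting program. The 7 blank cells were read as 0, and library size was the sum of a column. The 2 libraries of untreated embryos were not analysed here. None (0) of the 22732 isogroup IDs matched the RefSeq table of 34686 genes (assembly MU-UCD_Fhet_4.1), so no gene names, gene lists or sequences were used.

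Fisher's exact test and the exact conditional test (Fisher's noncentral hypergeometric distribution), both two-sided, were adjusted by Benjamini-Hochberg over all isogroups tested. Ratios have exact 95% Clopper-Pearson intervals. Both tests were also run on simulated counts. These tests allow for no scatter between libraries beyond counting error. The pairs of libraries compared here differed by more than that. Each pair also differed in population or treatment, so scatter between libraries cannot be told apart from these. The simulation is therefore not used as a rate of false calls for these data. Alternatives were library sizes by TMM, by DESeq2 or without the 10 most abundant isogroups, minima of 1 and 30 reads, no minimum ratio or a ratio of 4, 0.25 or 2 reads added, and edgeR and DESeq2 fits.

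The isogroups, lists and rules were chosen with earlier results of these data known. Named were the 2 isogroups of smallest p in each direction of the PCB-126 comparison and of the conditional test.

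Tests were run in edgeR 4.0.16 and DESeq2 1.42.0 under R 4.3.3, and in scipy 1.17.1 under Python 3.11.15 (pandas 2.3.3, numpy 2.4.6). Plots were drawn in matplotlib 3.10.9.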

Additional observations from a re-analysis of the deposited data

Results flagged for a closer look

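The population ratio differed between treatments, by the exact conditional test, in 210 isogroups where NBH over SC was higher with PCB-126 and in 216 where it was lower. Among the isogroups named above, the adjusted p of that exact test was 3.35e-31 for isogroup00900 and 8.69e-26 for isogroup00084, whose ratios were higher with PCB-126. It was 6.95e-26 for isogroup00212, 4.64e-14 for isogroup00066 and 1.50e-04 for isogroup00010, whose ratios were lower with PCB-126. In isogroup00010 NBH was below SC with both treatments, and the size of the difference was what changed. With 1 library per group, a difference between treatments and a difference between single libraries cannot be told apart.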

How the results depend on the processing

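With library sizes from TMM, from DESeq2 or without the 10 isogroups of most reads, 548 to 574 isogroups were called higher and 555 to 580 lower in NBH with PCB-126. With TMM, 226 were higher and 249 lower with DMSO, and the ratio was higher with PCB-126 in 239 and lower in 214. Without a minimum ratio 634 were higher and 616 lower with PCB-126. A minimum of 1 read gave 410 higher and 372 lower with PCB-126, 335 higher and 200 lower with DMSO, 38 called the same way with both treatments and 139 with a ratio higher with PCB-126. A minimum of 30 reads gave 129 higher and 138 lower with PCB-126, 82 higher and 79 lower with DMSO, 27 the same way, and 120 with a ratio higher and 113 lower with PCB-126 than with DMSO. With that minimum the median log2 ratio was −0.01 against 0.02 as reported, and the r between treatments was 0.17 against 0.06 over all 4234 isogroups. A ratio of 4 gave 149 higher with DMSO and 47 the same way. The exact test of edgeR with the estimated dispersion gave 1 higher and 0 lower with PCB-126 (419 at an unadjusted p under 0.05), 0 higher and 0 lower with DMSO (315), and 0 the same way with both. Its adjusted p with PCB-126 was 0.0499 for isogroup22580, 0.504 for isogroup01987, 0.454 for isogroup00010, 0.280 for isogroup00658 and 0.642 for isogroup00900. The same edgeR exact test gave isogroup00084, isogroup00212 and isogroup00066 a larger adjusted p than any of these. At a coefficient of variation set to 0.4 it gave 8 higher and 14 lower with PCB-126, 0 higher and 1 lower with DMSO (565 at an unadjusted p under 0.05), and 1 the same way, and the likelihood ratio test gave 15 isogroups with a ratio higher and 24 lower with PCB-126. Over the 4 libraries, edgeR's quasi-likelihood test gave 10 higher and 12 lower (259 at an unadjusted p under 0.05), and DESeq2 gave 0 higher and 1 lower (56).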

Other observations

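The share of isogroups called between NBH and SC embryos with PCB-126 varied with the isogroup's number in the table, and no source used here says what the numbering stands for. Among isogroups with 10 to 19 reads in the pair, 225 of 1214 (18.5%) were called for numbers 1 to 5000, 207 of 667 (31.0%) for 5001 to 10000, 148 of 277 (53.4%) for 10001 to 15000 and 75 of 129 (58.1%) for 15001 to 22732. The share of these isogroups with reads in all 4 libraries was 78.3%, 56.2%, 35.0% and 28.7% in the same order of numbers. Among isogroups with at least 50 reads the share called was 15.2% (88 of 578), 17.1% (13 of 76), 28.6% (8 of 28) and 23.1% (6 of 26). The last of these shares rest on few isogroups. This pattern was seen in the data and was not tested.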
